A study of Mus musculus with 6 samples.

Results

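Of 225604 autosomal ATAC-Seq sites tested in mouse embryonic fibroblasts (MEFs), 6800 (3.01%) lay in mildly lowered neighbourhoods. For each site, d was the log2 normalized reads of HAT1-/- cells minus those of HAT1+/+ cells, and m was the mean of d over 25 consecutive sites centred on it (fewer at chromosome ends). A site was a member when m lay from -0.58 to -0.35. A further 5098 autosomal sites (2.26%) had m below -0.58 and are called strongly lowered, and 213706 (94.7%) had m above -0.35 and are called other sites. The series held 229903 tested sites with the sex chromosomes included. The members were thus chosen by d itself, so their d and m are given as descriptions and carry no test.

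Chromatin accessibility was measured in 3 HAT1+/+ and 3 HAT1-/- lines of primary MEFs, taken from embryos of C57bl6 background and grown in DMEM with 10% FBS. The cells carried no other allele or agent in the labels, and the HAT1-/- lines carried the knockout from the embryo onward rather than after an acute loss. The values available were the authors' mean of each genotype, so no spread between lines could be computed and no difference below was tested against it. Values are therefore set side by side, and where a difference was computed on each of the 19 autosomes its mean ± SD over chromosomes is given.

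HAT1 is the histone acetyltransferase that acetylates newly made histone H4 before it is placed on replicated DNA. ATAC-Seq uses a transposase that inserts into open DNA, so a site with many reads is accessible, and in bulk samples fewer cells with an open site cannot be told apart from less opening per cell. Large AT-rich, gene-poor stretches of chromosomes are commonly heterochromatic and often lie at the nuclear lamina, whereas gene-rich, GC-rich stretches hold most promoters.

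The fibroblast label was checked at promoters. All 10 fibroblast genes examined had a tested site within 1 kb of a start, with 36.0 to 626 normalized reads in HAT1+/+ cells (median 165). Of 12 genes of epithelial, endothelial, immune, muscle and neural cells, 8 had such a site, the highest at 99.04 reads, and Krt5, Pax7, Sox10 and Neurod1 had no tested site there, so no level was measured for them. Inside Hat1, the last of the 3 sites tested there (chr2:71421184-71421348) held 22.0 reads in HAT1+/+ and 3.41 in HAT1-/- cells, a d of -2.69. The Hat1 promoter site held 206.5 and 238.9 reads, and its m of -0.15 placed it outside the members.

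To show what kind of sequence these sites hold, the RefSeq reference sequence (mm10, forward strand) is printed for the site of at most 300 bp with the most reads in each of the 5 largest separate weak domains, which are described further on. Capitals mark matches on either strand to the AP-1 motif TGANTCA, bound by Fos and Jun factors, and to the TEAD motif GGAATG. The first lies in an intron of Gc at chr5:89444445-89444694 (24.1 reads in HAT1+/+, 29.0 in HAT1-/-). Repeats make up 81.6% of its bases, which is unlike most members, of which 3.63% are over 50% repeat. The site in Galnt13 at chr2:55091499-55091789 (22.0 and 22.2 reads) holds neither motif. The site near Id4, at chr13:48273814-48274068 (30.7 and 18.4 reads), overlaps A330048O09Rik, lies within 3 kb of an annotated start and holds 3 TEAD matches. The site at chr13:79285590-79285765 (25.99 and 20.8 reads) overlaps Gm29318 and is within 3 kb of an annotated start. The site at chr3:128608763-128608956 (19.7 and 10.8 reads) also lies within 3 kb of an annotated start and holds 2 AP-1 matches.
Gc intron site: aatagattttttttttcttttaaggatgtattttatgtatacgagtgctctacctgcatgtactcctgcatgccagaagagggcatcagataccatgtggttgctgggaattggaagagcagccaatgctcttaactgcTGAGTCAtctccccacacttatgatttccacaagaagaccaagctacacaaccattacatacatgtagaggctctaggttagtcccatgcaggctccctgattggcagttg
Galnt13 intron site: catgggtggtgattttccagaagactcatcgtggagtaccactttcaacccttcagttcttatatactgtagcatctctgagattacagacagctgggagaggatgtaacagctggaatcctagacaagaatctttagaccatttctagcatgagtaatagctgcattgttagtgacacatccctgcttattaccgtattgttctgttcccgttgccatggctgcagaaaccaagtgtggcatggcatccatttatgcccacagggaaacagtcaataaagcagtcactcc
Id4 domain site: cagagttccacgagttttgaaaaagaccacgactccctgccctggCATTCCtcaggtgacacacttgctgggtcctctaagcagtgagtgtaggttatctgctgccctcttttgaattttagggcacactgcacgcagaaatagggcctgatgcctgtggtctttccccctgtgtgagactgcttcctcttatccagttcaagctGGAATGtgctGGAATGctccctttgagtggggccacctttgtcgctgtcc
Gm29318 site: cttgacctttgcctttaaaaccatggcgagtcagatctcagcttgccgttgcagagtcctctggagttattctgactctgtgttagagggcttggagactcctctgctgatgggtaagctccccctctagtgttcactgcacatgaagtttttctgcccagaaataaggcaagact
Chromosome 3 domain site: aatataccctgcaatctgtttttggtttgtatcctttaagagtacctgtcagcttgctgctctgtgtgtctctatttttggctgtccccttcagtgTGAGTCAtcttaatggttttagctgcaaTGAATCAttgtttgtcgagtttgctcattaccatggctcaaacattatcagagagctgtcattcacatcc
These 5 sites had d of 0.27, 0.01, -0.74, -0.32 and -0.87 in that order, so that the most accessible narrow site of a weak domain was lower in HAT1-/- cells in 3 of the 5 domains.

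Members lay between other sites and strongly lowered sites in the reads that HAT1-/- cells kept. The median site held 13.5 normalized reads in HAT1+/+ and 10.2 in HAT1-/- cells, against 14.6 and 14.1 at other sites and 14.8 and 7.52 at strongly lowered sites. Summed over sites, members kept 76.7% of their HAT1+/+ reads, other sites 95.8% and strongly lowered sites 51.8%. The mean d of members was -0.43 with an SD of 0.67 over sites, so that single sites spread widely around the neighbourhood value. In all, 5149 of 6800 members (75.7%) had d below 0, compared with 53.7% of other sites. A d at or below -1 was found at 1235 members (18.2%) and at 5.12% of all autosomal sites, and a d at or above 1 at 120 members (1.76%) and at 2.78% of all autosomal sites. These counts come from the contrast that chose the members, and nothing is read from them.

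The distribution of d at members was displaced along its whole length. Against other sites it lay lower by 0.60 at the 10th percentile (-1.26 and -0.66), by 0.36 at the median (-0.40 and -0.04) and by 0.25 at the 90th percentile (0.34 and 0.59), as the cumulative curves of single-site differences show.

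**Figure D1:**
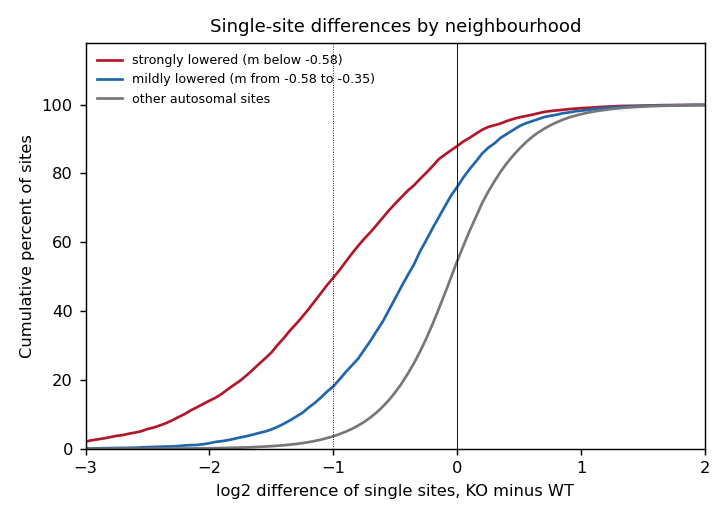
Cumulative percent of sites (vertical axis) against the log2 difference of single sites, HAT1-/- minus HAT1+/+ (horizontal axis), for strongly lowered, mildly lowered and other autosomal sites. The curve of the mildly lowered sites lies between the others, with 18.2% of sites at or below -1 (dotted line) and 75.7% below 0.

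The members next to each bound differed in m by less than 0.001 from the sites across it. On the bound of -0.58, 3 members on chromosomes 1, 10 and 10 had d of -0.31, -1.35 and -0.99, and the 3 nearest sites beyond it, with m of -0.5804 on chromosomes 13, 2 and 2, had d of -0.02, -1.38 and -1.76. On the bound of -0.35, 3 members on chromosomes 1, 10 and 10 had d of 0.10, 0.18 and 0.04, and the 3 nearest other sites, with m of -0.3496 on chromosomes 1, 10 and 11, had d of -1.03, -1.29 and -0.66. The bounds thus cut through a continuous range of neighbourhood values. A single site's own d, 1 of the values averaged in its m, did not alone set its class.

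The main question about these neighbourhoods was how far they lay from strongly lowered sites. The median member was 1281 kb from the nearest one, and the range ran from 2 bp to 75635 kb, with quartiles at 159 and 5498 kb. Within 100 kb lay 18.9% of members, within 500 kb 39.0%, within 1 Mb 46.6% and within 10 Mb 84.7%. Counted in sites, 2839 members (41.8%) lay within 24 sites of a strongly lowered site, the distance at which windows of 25 sites still share a site. The other 3961 shared no site with a strongly lowered window, and 3549 of these (52.2% of all members) were also at least 1 Mb away.

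Members were then divided by the stretch they sat in, a stretch being a run of consecutive sites with m at or below -0.35 and gaps of at most 1 Mb. Of 952 stretches, 172 held a strongly lowered site, and the 2654 members in them (39.0%) are called shoulders. The remaining 780 stretches held 4146 members (61.0%) and no strongly lowered site. A stretch was counted as a separate weak domain when it held at least 5 sites and every site was at least 1 Mb and 25 sites from a strongly lowered one. There were 231 such domains with 2679 members (39.4%). The other 549 weak stretches, with 1467 members (21.6%), had fewer than 5 sites (509 stretches), lay under 1 Mb from a strongly lowered site (39) or lay under 25 sites from one (1).

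Shoulders lay a median of 106 kb from the nearest strongly lowered site, members of other weak stretches 1404 kb and members of separate weak domains 5442 kb. No shoulder was more than 2463 kb away, and the separate weak domains started at 1021 kb by construction of the 1 Mb limit.

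**Figure D2:**
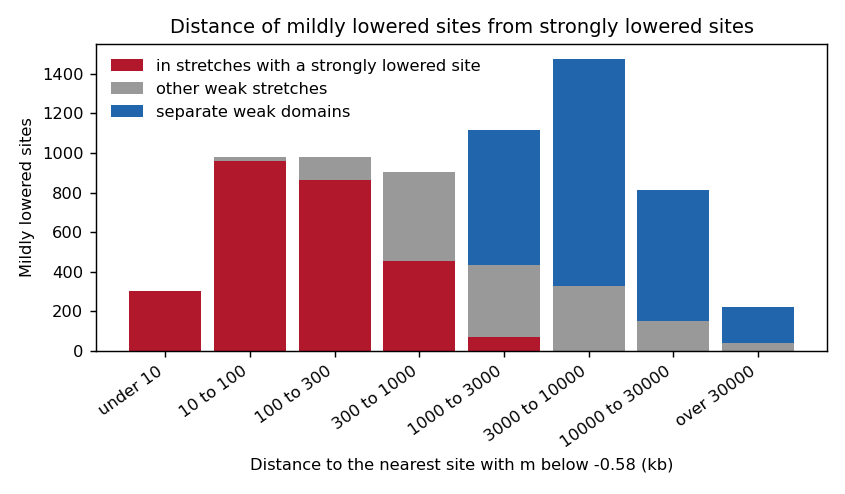
Number of mildly lowered sites (vertical axis) by distance to the nearest strongly lowered site in kb (horizontal axis, bins of unequal width), stacked by the kind of stretch. Up to 100 kb nearly all members are shoulders, from 300 to 1000 kb there are 455 shoulders and 451 members of other weak stretches, and 1151 of the members of separate weak domains lie from 3000 to 10000 kb away.

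Shoulders and separate weak domains had similar mean d, and their windows were built differently. The mean d was -0.46 in shoulders, -0.37 in other weak stretches and -0.43 in separate weak domains, with 76.2%, 79.3% and 75.8% of HAT1+/+ reads kept. Among the 2140 shoulder members with a strongly lowered site within 12 sites on only 1 side, the 12 sites towards it averaged -0.71 ± 0.22 (SD over members) and the 12 sites away from it -0.23 ± 0.21, and the side towards it was lower for 88.1% of them. Where strongly lowered sites lay on both sides (245 members), the values were -0.53 and -0.51. In separate weak domains (2641 members with both sides available) they were -0.42 ± 0.17 and -0.41 ± 0.17, and the side towards the nearest strongly lowered site was lower for 49.8%. These contrasts use the d values that chose the members and follow in part from how the kinds of stretch were defined, so they describe the windows and nothing more is read from them. On the side away from the nearest strongly lowered site, 64.5% of separate members averaged -0.35 or lower.

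Mean d of members did not fall steadily with distance in sites. It was -0.50 at 1 to 4 sites from a strongly lowered site, -0.46 at 5 to 12 sites, -0.22 at 13 to 24 sites, -0.46 at 25 to 99 sites, -0.42 at 100 to 499 sites and -0.40 at 500 sites or more. The members at 13 to 24 sites, 321 in number, kept 84.96% of their reads, against 73.5% to 77.3% in the other distance classes. They lie outside the windows of strongly lowered sites but share sites with them. Their mean m was -0.42, close to that of members at 25 to 99 sites (-0.42) and at 100 to 499 sites (-0.41). Why their d was higher was not tested. Beyond the edges of separate weak domains, mean d was -0.40 over the first 5 sites, -0.21 at 6 to 12 sites and -0.05 at 13 to 25 sites. Sites up to 12 beyond an edge still belong to windows of members, and past that reach mean d was close to that of other sites (-0.04).

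Because a site's own d enters its m, windows were also made from alternate sites of each chromosome and d was read at the sites left out. These come from the same libraries, so they repeat the measurement at other places and not in other cells. When windows used the odd-numbered sites, 3289 members had a mean d of -0.45 and the next even-numbered sites -0.38. With the even-numbered sites in the windows, the means were -0.45 and -0.37. In separate weak domains the left-out sites averaged -0.35 and -0.36, in shoulders -0.44 and -0.40, and at other sites -0.05 both times. Of the 101 and 105 separate weak domains found from alternate sites, left-out sites inside them averaged below 0 in 89 and 97, and at or below -0.35 in 42 (41.6%) and 49 (46.7%).

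**Figure D3:**
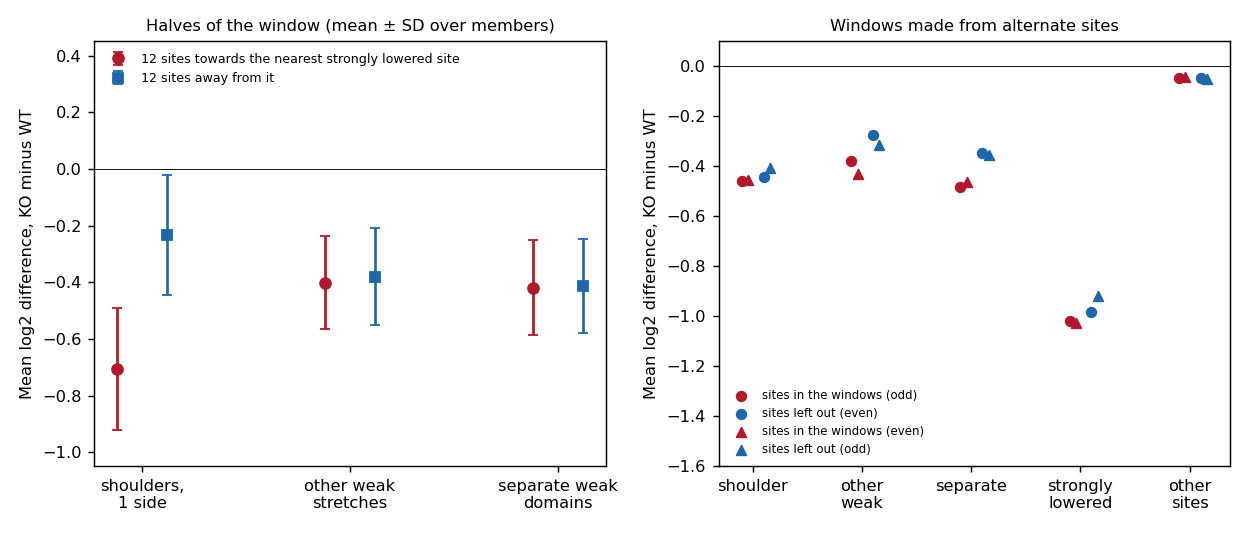
Left, mean log2 difference ± SD over members of the 12 sites on the side of the nearest strongly lowered site (circles) and of the 12 on the other side (squares), for shoulders with such a site on 1 side, other weak stretches and separate weak domains. Right, mean log2 difference of sites used to make the windows (red) and of the neighbouring sites left out (blue), for windows from odd-numbered (circles) and even-numbered (triangles) sites. Left-out sites of separate weak domains average -0.35 and -0.36, against -0.05 at other sites.

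The 231 separate weak domains were mostly short. They held a median of 10 sites (range 5 to 39) over a median of 100 kb (range 4.35 to 2995 kb), summed to 58.2 Mb, and 12 were 1 Mb or longer. By comparison, the 172 stretches with a strongly lowered site held a median of 39 sites over 1787 kb. Separate weak domains kept a median of 75.04% of their HAT1+/+ reads (range 44.9% to 128%), and their flanks, the other sites (m above -0.35) up to 1 Mb on each side, a median of 95.1%. Since m set both the domains and the flanks, the flanks' values here and below are a description of the contrast that the rule makes. A site with d at or below -1 was present in 184 domains, and 47 had none. In 77 domains the mean d of the sites themselves was above -0.35, so that their place in the band came from sites just outside.

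A band of the same width on the other side of the autosomal median of d (-0.06), with m from 0.23 to 0.46, gives the scale of these counts. It held 3675 sites, of which 2598 formed 245 separate stretches by the same rules, and 9 sites lay beyond its far bound. Under these rules the number of separate lowered stretches was no larger than that of raised ones. The distance rule bore mainly on the lowered side, where 5098 sites lay beyond the far bound. Without that rule, stretches of at least 5 sites with none beyond the far bound numbered 271 lowered and 245 raised. In the domains found from alternate sites, left-out sites of the lowered ones lay 0.29 and 0.30 below the autosomal median, with odd-numbered and even-numbered windows in turn. Those of the raised stretches found in the same way lay 0.10 and 0.13 above it. GC content around the separate stretches differed from that of other sites by -2.98 ± 1.14 percentage points (SD over 19 chromosomes) for the lowered and by -0.79 ± 1.82 for the raised ones. A promoter lay at 17.99% of sites in the lowered and 25.9% in the raised stretches.

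The largest separate weak domain by sites lay at chr5:89232167-89860865, with 39 sites over 629 kb. It holds the starts of Gc, which encodes the vitamin D-binding protein of plasma, and Npffr2, a receptor for neuropeptide FF, and overlaps Slc4a4 and Adamts3. Its median site held 19.4 reads in HAT1+/+ and 14.2 in HAT1-/- cells, mean d was -0.50 (range -2.07 to 0.64), and 30 of 39 sites were below 0. It kept 68.3% of reads and its flanks 98.1%. The nearest strongly lowered site was 2391 kb and 101 sites away.

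The domain at chr2:54442760-55823347 (34 sites, 1381 kb) holds the start of Kcnj3, a subunit of G-protein-gated inward rectifier potassium channels, and overlaps Galnt13. Its sites were split, with a mean d of -0.44, a median of -0.21 and 19 of 34 below 0. Its flanks were also low, with a mean d of -0.28 over 48 sites and 78.5% of reads kept, against 77.1% in the domain. It lay 11.8 Mb from a strongly lowered site.

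The next 2 domains by number of sites were both on chromosome 13. The one at chr13:48105697-48469152 holds Id4, an inhibitor of DNA-binding helix-loop-helix factors. It had 30 sites with a mean d of -0.47, 25 of them below 0, kept 72.0% of reads beside 95.6% in its flanks, and lay 20.3 Mb from a strongly lowered site. The one at chr13:79002661-80495511 spans 1493 kb with 28 sites and no protein-coding gene, and 22 of its sites are distal intergenic. Its mean d was -0.44, 25 of 28 sites were below 0, and it kept 72.5% of reads beside 97.5% in its flanks.

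The domains at chr3:128455914-129180565, chr6:147637213-147794692 and chr15:67543288-67903402 also hold no protein-coding start. Their mean d was -0.48, -0.34 and -0.45, with 69.5%, 79.6% and 79.4% of reads kept. The domain at chr8:87662765-87767058 lies wholly inside Zfp423, a zinc finger transcription factor gene of adipocyte precursors and neural progenitors, and all 25 of its sites are intronic. There 21 of 25 sites were below 0, mean d was -0.43 and 70.9% of reads were kept. The domain at chr4:100311686-100517971 holds the start of Ube2u, of the ubiquitin-conjugating enzyme family, and overlaps Ror1, a receptor tyrosine kinase of Wnt signalling, with a mean d of -0.38 over 26 sites and 72.7% of reads kept.

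The longest separate weak domain, chr6:18534428-21529572, spans 2995 kb with 26 sites and holds the starts of Lsm8, a component of the ring that binds U6 small nuclear RNA, Ankrd7 and Kcnd2, an A-type potassium channel. Its mean d was -0.45, but only 15 of 26 sites were below 0 and 89.7% of reads were kept, the highest share among the 10 largest domains. The next in length, chr8:58228602-60467262, covers Galntl6 and BC030500 over 2239 kb with 13 sites, a mean d of -0.63 and 59.5% of reads kept. The domain at chr10:113025458-114827543 covers Trhde, the enzyme that degrades thyrotropin-releasing hormone, over 1802 kb with 22 sites, of which 18 were below 0, and kept 68.1%.

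**Figure D4:**
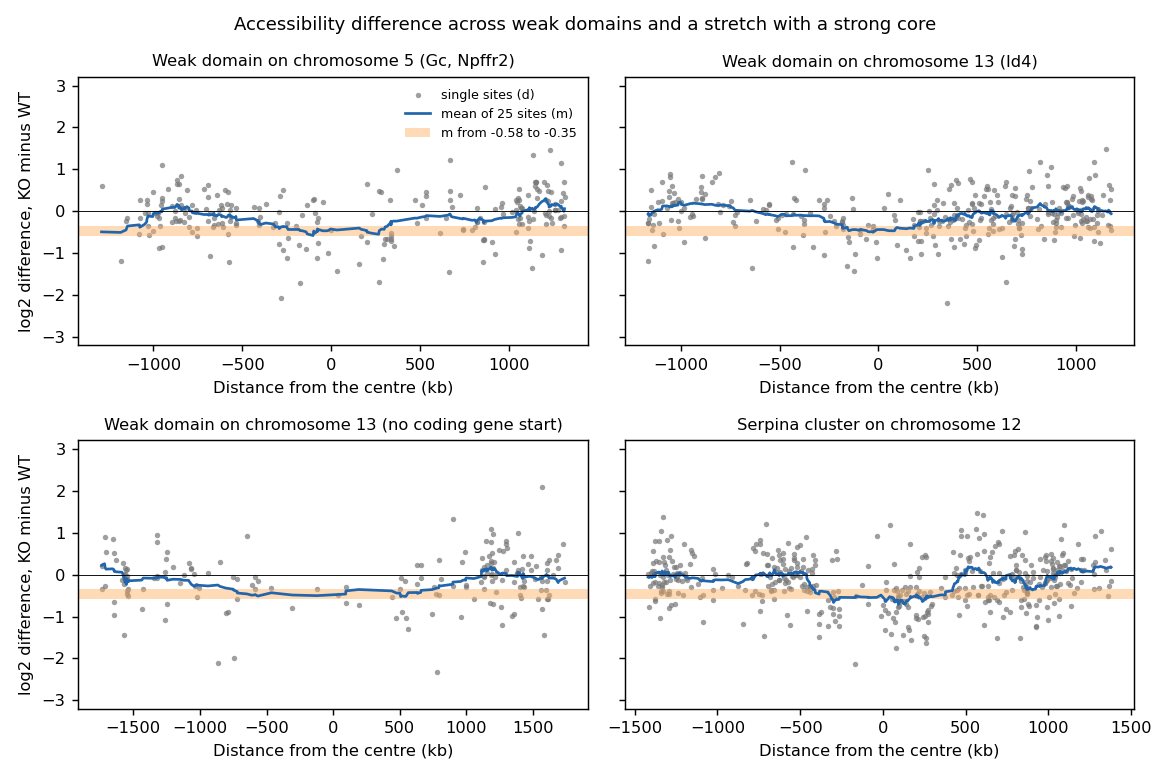
Log2 difference, HAT1-/- minus HAT1+/+, of single sites (grey points) and its mean over 25 sites (blue line) against distance in kb from the centre of 3 separate weak domains and of the Serpina stretch, with 1 Mb on each side. The shaded band runs from -0.58 to -0.35. In the weak domains the line enters the band without crossing its lower edge, and in the Serpina stretch it passes below it.

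The shoulders with the most members surrounded cores that were themselves shallow or deep. The stretch with the most, 53 members and 44 strongly lowered sites at chr12:103553731-104395157, is the Serpina cluster of serine protease inhibitor genes, many of which encode plasma proteins made by liver. Its members had a mean d of -0.51 and kept 65.1% of reads, and its strongly lowered sites kept 60.4%. The stretch at chr2:147847377-148443857, with 41 members and 28 strongly lowered sites, holds Foxa2, an endoderm transcription factor gene, Sstr4, a somatostatin receptor gene, Thbd, which encodes thrombomodulin, and Cd93. There members kept 67.1% and strongly lowered sites 62.2%. At chr6:77472169-81896032, which holds Ctnna2, Lrrtm4 and a cluster of Reg genes, 38 members had a mean d of -0.44 and kept 72.6%, beside 66 strongly lowered sites that kept 40.1%.

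Members were found on every autosome, from 1.57% of sites on chromosome 19 to 4.60% on chromosome 5, which held 641 members and 24 separate weak domains. The share of members that lay in separate weak domains ran from 19.5% on chromosome 1 to 66.2% on chromosome 13. Because a separate domain must lie away from strongly lowered sites, this share also depends on how many of those a chromosome holds. Chromosome 11 had few strongly lowered sites (33, or 0.22%), and 1.62% of its sites were members. It held 14 separate weak domains in 14722 sites, beside 231 in 225604 sites over all autosomes, which is a similar density.

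The neighbourhoods of members were poorer in GC and in genes than those of other sites, and richer than those of strongly lowered sites. None of these measures was used to choose the members. The GC content of the 200 kb around a site had a median of 40.6% at members, 44.4% at other sites and 38.5% at strongly lowered sites. By chromosome, members lay 3.81 ± 1.29 points below other sites, on all 19 chromosomes (mean difference -3.81), and strongly lowered sites lay a further 1.87 ± 0.91 points below members, also on all 19. Separate weak domains had a median of 41.6% and shoulders 39.5%, with the former higher on 18 of 19 chromosomes.

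Within 500 kb of a site, members had a median of 13 gene starts, other sites 23 and strongly lowered sites 8. The difference from other sites was -9.97 ± 4.57 genes over the 19 chromosomes and was below 0 on 18. Members also had fewer tested sites around them, 69 within 500 kb against 135 at other sites and 28 at strongly lowered sites, a difference of -67.2 ± 17.9 that was below 0 on every autosome. Site density is linked to the readout, since a site had to be found as a peak to be tested. Members were narrower than other sites by 14.5 ± 8.9 bp on average, with medians of 242 and 256 bp over all chromosomes.

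By position, 17.97% of members lay within 3 kb of a transcription start, 33.9% in introns and 45.8% in distal intergenic DNA, against 29.0%, 35.7% and 30.9% of other sites. The promoter share of members was lower by 11.9 ± 6.1 points (mean difference -11.9, below 0 on 18 of 19 chromosomes), and the distal share was higher by 15.9 ± 7.2 points on all 19. In separate weak domains 17.99% of sites were promoters and 40.6% distal.

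The central 200 bp of members differed in motif content. The AP-1 motif TGANTCA occurred in 26.9% of members, 22.5% of other sites, 34.9% of strongly lowered sites and 22.9% of all autosomal sites. The difference between members and other sites was 4.86 ± 3.47 points and above 0 on all 19 chromosomes. The TEAD motif GGAATG occurred in 18.5% of members and 15.3% of other sites (15.5% of all), above 0 on 18 chromosomes, and CCAAT, the NFY motif, in 24.1% and 21.5% (21.7% of all), above 0 on 16. The RUNX motif TGTGGT and the E-box CANCTG showed no direction, with differences of -0.06 ± 2.68 and -0.68 ± 2.79 points. Each search covered both strands. Members held a mean of 2.65 CpG in these 200 bp and other sites 3.88. The share of bases in repeats was 6.67% at the median member and 6.37% at the median other site.

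**Figure D5:**
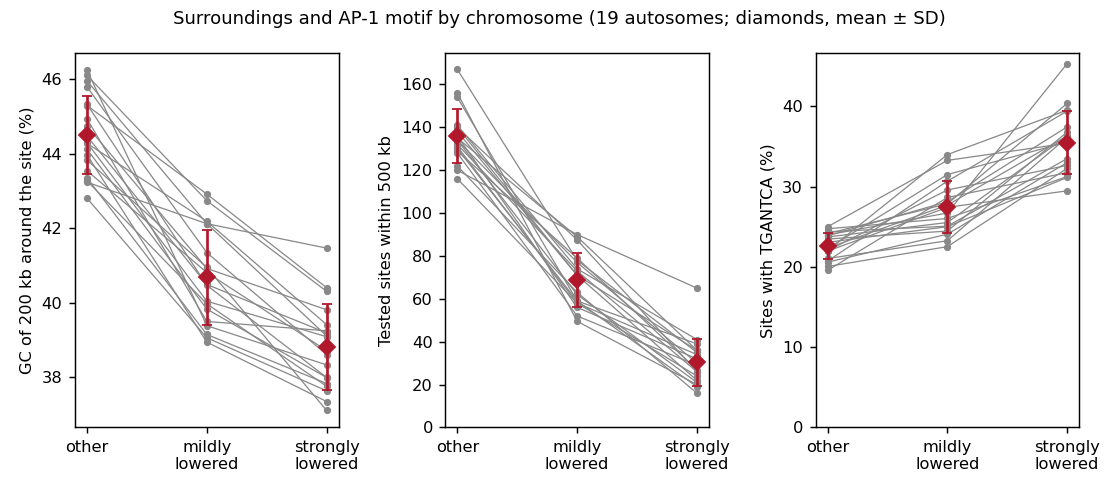
GC content of the surrounding 200 kb, tested sites within 500 kb and the share of sites with TGANTCA, for other, mildly lowered and strongly lowered sites of each of 19 autosomes (grey lines, 1 per chromosome; medians for the first and middle panels), with the mean ± SD over chromosomes as diamonds. On every autosome the mildly lowered sites lie below other sites in GC and site density and above them in the share with the motif.

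Among members themselves, promoter members had a mean d of -0.38 and kept 84.1% of reads, intronic members -0.43 and 74.3%, and distal members -0.46 and 72.0%. These shares are of summed reads, in which sites with many reads weigh most. The median promoter member held 17.9 reads in HAT1+/+ and 13.4 in HAT1-/- cells, and the median distal member 13.1 and 9.58. On 16 of 19 chromosomes the mean d of promoter members was above that of distal members, by 0.08 ± 0.08 on average, with gaps of 0.13 ± 0.15 in shoulders (above 0 on 15 of 18 chromosomes) and 0.03 ± 0.17 in separate weak domains (11 of 18), where no direction was clear. In strongly lowered sites the gap was 0.35 ± 0.20 over 17 chromosomes with enough sites of both kinds. Members with 10 or more CpG kept 89.9% of summed reads and those with 0 or 1 CpG 72.1%, with mean d of -0.34 and -0.45. The median site held 39.1 reads in HAT1+/+ and 26.4 in HAT1-/- cells in the former, and 12.5 and 9.25 in the latter. The medians thus did not show the CpG-rich members as more nearly spared. When autosomal sites were divided by mean reads into 4 classes of 25%, the lowest class held 2172 members with a mean d of -0.34, and the classes above it averaged -0.42, -0.55 and -0.46.

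Genes were assigned to the tested site nearest to their start within 100 kb. Of 19921 protein-coding genes with such a site, 552 (2.77%) were at a member, 238 of them in separate weak domains, and 303 (1.52%) at a strongly lowered site. Several genes of a cluster can share a nearest site, so the counts below are of genes and not of independent regions. The class was set by m of the nearest site, whose own d could lie above 0.

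Among the lists, that of olfactory receptors gave the most genes in separate weak domains. Olfactory receptor genes, which encode the odorant receptors of nasal sensory neurons, had 72 of 794 at members (9.07%), 67 of these in separate weak domains and 0 at strongly lowered sites. A further 334 of the 1128 listed olfactory receptor genes had no tested site within 100 kb and could not be placed, against 886 of all 20807 protein-coding genes. Those at members sat mainly in 3 separate weak domains, named after their values were seen. The domain at chr7:104464887-105221224 had 17 sites with a mean d of -0.67 (range -2.32 to 2.01) and kept 60.3% of reads, beside 98.0% in its flanks. The domain at chr2:110728072-112078948, which also holds the start of Ano3, had 13 sites with a mean d of -0.65 and kept 71.1%. The sites nearest to its olfactory receptor genes had d of 0.58 (Olfr1306 to Olfr1311) or -0.43 (Olfr1312 to Olfr1316). The domain at chr7:102737765-103250088 had 6 sites, all below 0, with a mean d of -0.52. Vomeronasal receptors had 7 of 195 at members and trace amine receptors 0 of 15.

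Serpins had 14 of 60 genes at members, all of them shoulders, and 19 at strongly lowered sites. Cytochrome P450 genes, which encode oxidising enzymes of fatty acid, steroid and drug metabolism, had 15 of 93 at members and 1 at a strongly lowered site. Of these, 10 were Cyp4 genes in 1 separate weak domain at chr4:115102274-115710240, where 14 of 18 sites were below 0, mean d was -0.62 and 67.4% of reads were kept, and the other 5 were Cyp2j genes at shoulder sites.

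Potassium channel genes had 8 of 92 at members (8.70%), among them Kcnj3, Kcnk15, Kcnd2 and Kcnc2 in separate weak domains. The sites nearest to the starts of these genes had d of 0.20, -0.33, 0.04 and -0.49 in that order. Synaptic receptor and adhesion genes had 5 of 61 at members (8.20%), with Grin2b in a separate weak domain, and 15 of 61 at strongly lowered sites. Cadherins and protocadherins had 1 of 88 at a member and 10 at strongly lowered sites. Collagens had 2 of 43, Col9a1 and Col2a1, which encode cartilage collagens. The Col2a1 domain at chr15:97992917-98026610 had 8 of 10 sites below 0 and kept 69.0% of reads. Zinc finger genes of the Zfp series had 3 of 376 at members and chemokines 1 of 35. No keratin gene of 53 and no Wnt, Fgf or Bmp ligand gene of 49 was at a member.

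A further domain, singled out after its values were seen, holds Dspp, Dmp1, Ibsp and Mepe, genes for matrix proteins of bone and teeth, at chr5:104128191-104345122. It had 25 sites, 18 of them below 0, with a mean d of -0.40, and kept 80.9% of reads beside 93.4% in its flanks. In all, 141 of the 231 separate weak domains held no protein-coding gene start, and the other 90 held 281.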

How the data were processed

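ATAC-Seq was measured in 3 HAT1+/+ and 3 HAT1-/- lines. The submitters' processing notes and methods name Bowtie2 and mm10 for alignment, MACS2 for peaks and DiffBind 2.14.0 for the comparison. The authors deposited 1 table of log2 normalized reads averaged by genotype, whose columns of their own comparison (fold, p-value and FDR) were not used. Values were taken as deposited, and normalized reads were computed back from log2. A site was assigned to the first of promoter (3 kb), UTR, exon, intron and distal intergenic that it met. Depth per line was not given in the sources used here, so no interval is printed. GC, starts and positions came from GRCm38.p6 and GENCODE vM21, the same assembly as mm10. Members and gene lists were chosen with earlier results of these data known. The regions named by rule are the 10 separate weak domains with most sites (ties at 25 sites taken by lower mean d), the longest 3, the 3 stretches with most shoulders, the sites nearest each bound and the protein-coding genes starting in those 10 domains; the domains of gene-list members (olfactory, Cyp4, Col2a1), of Dspp and of the closing observations were singled out after their values were seen. Scripts ran in Python 3.11.15 with pandas 2.3.3 and numpy 2.4.6, and the window and stretch steps were tested on simulated data. The simulated domains were longer than the separate weak domains reported here. That test therefore checked the steps and says nothing of domains of the reported size or of stretches arising from noise. Windows of 15 and 51 sites, medians, centring, a read filter and other limits were tried. The result of 1 gene list is withheld and not reported here.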

Additional observations from a re-analysis of the deposited data

How the results depend on the processing

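Of 55 recomputed values, 43 stayed within 1.5 times (counts) or 1 SD over chromosomes (other values), 12 moved and 0 changed direction. For the distance this SD (3805 kb) exceeded the value itself, so its 5 alternatives could hardly count as moved and say nothing of its stability. Separate weak domains numbered 231, and 338, 91, 256, 181 and 129 with windows of 15 sites, windows of 51 sites, medians, the 25% of sites with fewest reads left out and d centred on the autosomal median, and 249, 196 and 120 when at least 0.5 Mb, 2 Mb or 10 sites were required. With windows of 51 sites, 47.5% of members lay in weak stretches, against 61.0%. With d centred, 4462 sites were members, their mean d was -0.50 and their median distance from a strongly lowered site 601 kb, against 1281 kb. Without the 25% of sites with fewest reads that distance was 1971 kb. At sites left out of alternate windows mean d was -0.38 and -0.37. GC, gene start and promoter differences kept their direction in every setting run. The settings for distance, share, mean d and surroundings under the 5 window choices, and the raised band, were chosen after seeing the data. No line could be left out, since the columns are genotype means. No paired analysis was possible because the columns carry no replicate. Precision is limited by low reads per site, with a median of 13.5 and 10.2 normalized reads at members.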

Other observations

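Some of the shortest separate weak domains were the most lowered by mean d, though a mean over few sites spreads widely. Among all separate weak domains it ran from -0.96 to 0.21. The lowest, 5 sites in Myt1l (chr12:29823932-29837872), a neural zinc finger factor gene, had a mean d of -0.96 and kept 44.9% of reads. In a domain without a protein-coding gene at chr11:56550699-56901544 all 18 sites were below 0, with a mean d of -0.72 and 68.2% of reads kept. The domain of Stk32b and Cytl1 at chr5:37717102-37785285 had medians of 29.2 reads in HAT1+/+ and 11.8 in HAT1-/- cells over 9 sites, with 64.2% of its summed reads kept beside 96.8% in its flanks. These domains were picked after their values were seen. On chromosome X, which the rule leaves out, 82 of 4263 sites (1.92%) fell in the same band and 83 lay below it.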
